A study of Mus musculus with 12 samples.

Results

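The 48 genes described here encode proteins of the mitotic spindle, the kinetochore and the cytokinetic apparatus. They were taken by name, from a list drawn up with earlier results of these data known, and their rows were read from the table of each library. All 48 were among the 16288 genes listed in any library, all 48 were listed in every one of the 12 libraries, and all 48 passed the filter on low counts that left 12545 genes for testing.

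RNA came from C2C12 cells, an immortalized mouse myoblast line that leaves the cell cycle and forms myotubes when serum is lowered. The 12 libraries form 6 groups of 2, lettered A and B, which the labels call biological duplicates. Proliferating cells (GM, medium with 10% fetal bovine serum) and cells 24 h or 48 h after a change to medium with 2% horse serum and 2 ug/ml insulin (DM 24h and DM 48h) each received either the solvent DMSO or 50 uM PFI-3. Both agents were given for 12 h before harvest (GM) or for 12 h as a pretreatment (DM), and were renewed every 24 h in the differentiation medium. PFI-3 binds the bromodomains of the SWI/SNF remodelling ATPases BRM and BRG1 and of the related subunit PB1. All groups come from this single line, and 1 dose of PFI-3 was used.

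As background, mitosis runs on a small set of machines. The kinetochore, built on centromeric chromatin around CENP-A, joins chromosomes to spindle microtubules, and the spindle checkpoint holds the anaphase-promoting complex back until every chromosome is attached; once CDC20 is released, securin is degraded, separase cuts cohesin, and the midzone and contractile ring divide the cell. The genes for these proteins are switched on together in G2 and are held silent in cells that have left the cycle, as myotubes have.

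In DMSO the 48 genes fell little by 24 h and then dropped together. The median member stood at 82.3% of its GM level at 24 h and at 25.9% at 48 h, in CPM (counts scaled to a common library total after TMM normalization). From 24 h to 48 h all 48 were called lower, at a median log2 change of -1.64 (range -2.2 to -0.36), where 23.9% of all genes tested were called lower and 24.2% higher, and the median over all genes was 0. "Called" means an adjusted p under 0.05 in edgeR's quasi-likelihood test, adjusted over all genes tested. From GM to 24 h, 26 were called lower (30.0% of all genes) and 2 higher (30.6% of all genes), with a median log2 change of -0.28. In bulk RNA, fewer dividing cells and less of these RNAs in each cell cannot be told apart.

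With PFI-3 the late drop was shallower. The median member was at 77.8% of its GM level at 24 h and at 56.2% at 48 h. At 48 h all 48 genes were called higher with PFI-3 than with DMSO, by a median of 0.94 on the log2 scale (1.92-fold), where 13.4% of all genes were called higher and 14.0% lower. In all 48 both PFI-3 libraries lay above both DMSO libraries, which 35.4% of all genes did, while 35.9% had both under. At 24 h the difference ran the other way: 18 were called lower (11.4% of all genes) and none higher (12.2% of all genes), with a median log2 difference of -0.24. The fall from DMSO 24 h to DMSO 48 h and the PFI-3 difference at 48 h share the 2 DMSO libraries at 48 h, so they are not independent of each other.

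**Figure D1:**
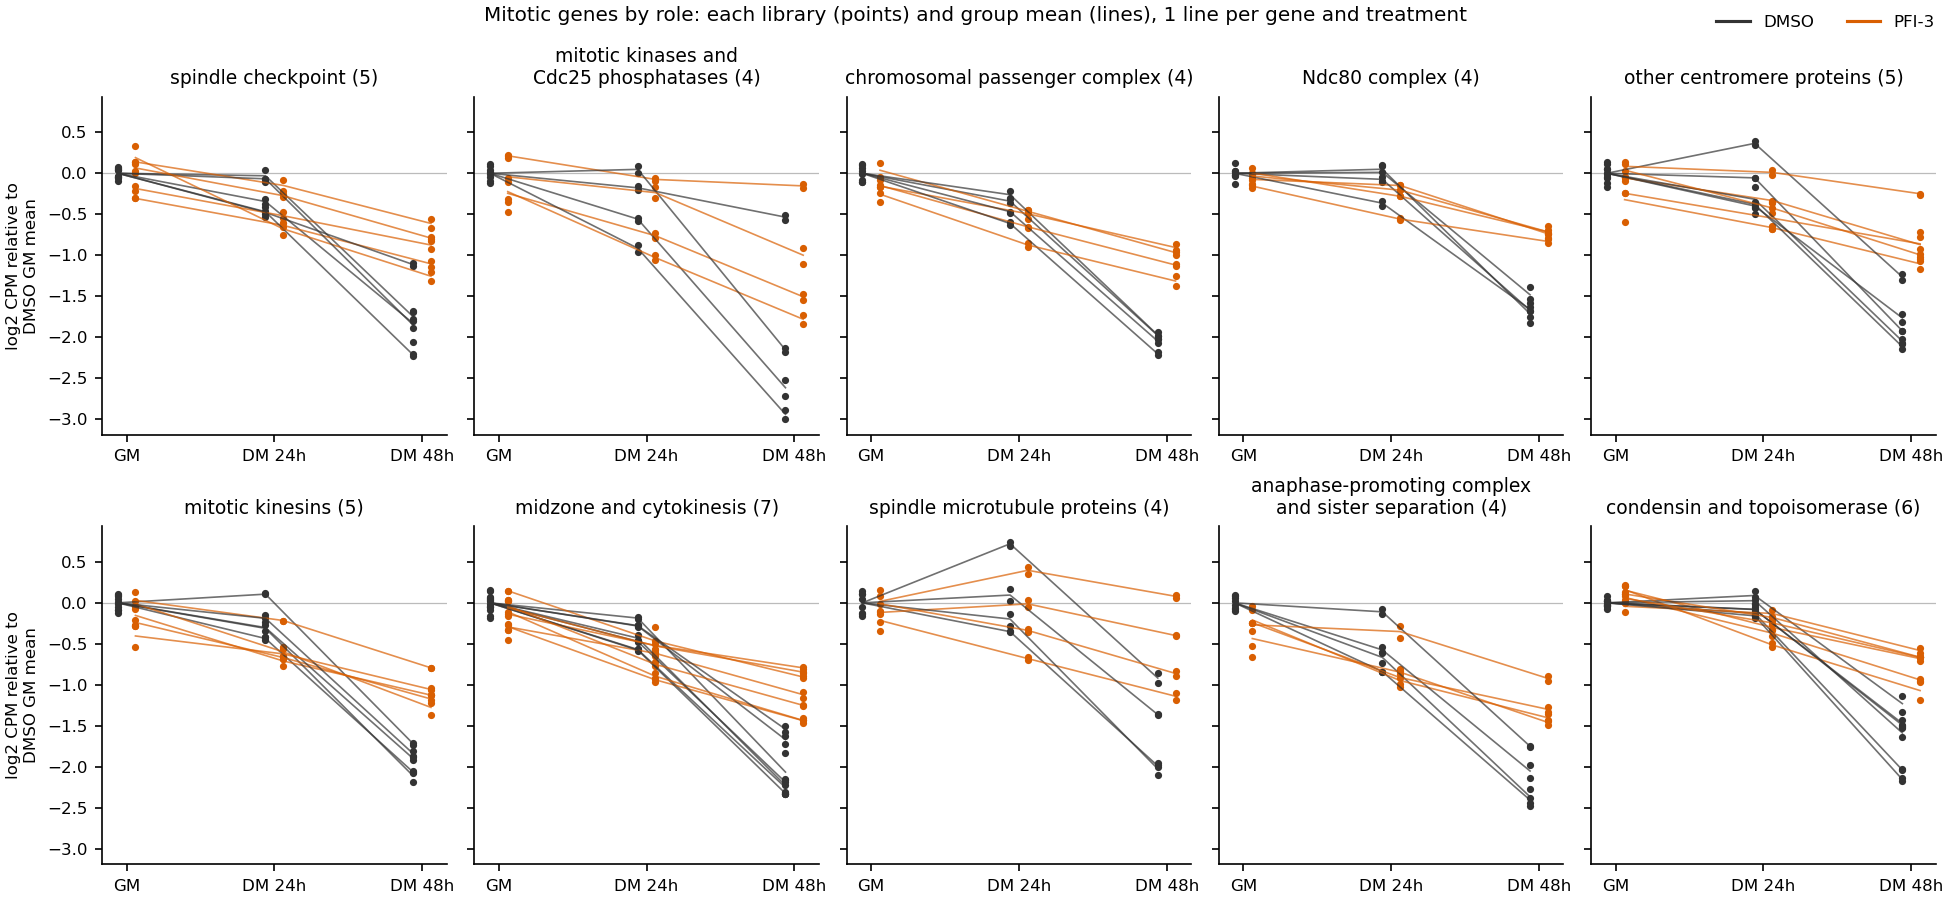
Level of each of the 48 genes by role group, as log2 CPM relative to the mean of the 2 GM libraries with DMSO; points are libraries and each line joins the group means of 1 gene in 1 treatment (black DMSO, orange PFI-3). The black lines drop steeply between DM 24h and DM 48h, and at DM 48h the orange points lie above the black points of the same gene for all 48 genes.

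The step from 24 h to 48 h also differed with PFI-3. It left the median member at 32.0% of its 24 h level with DMSO and at 72.4% with PFI-3. With PFI-3, 45 of the 48 were called lower across that step and none higher (14.2% and 13.1% of all genes), at a median log2 change of -0.47, and the 3 not called were Cdc25b (-0.08), Prc1 (-0.28) and Cenpk (-0.31). The test of the difference between the 2 falls called 46 of 48 genes in 1 direction (7.12% of all genes) and none in the other (4.97%), the fall being smaller with PFI-3 by a median of 1.19 on the log2 scale. Bub3 (0.28, adjusted p = 0.0834) and Cdc25b (0.27, adjusted p = 0.0644) were not called in it. For each gene, this tested difference is the PFI-3 difference at 48 h less that at 24 h, from the same libraries. Those had medians of 0.94 and -0.24, so the lower level with PFI-3 at 24 h adds to it. It is not independent of them.

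For the first step, from GM to 24 h, few members were called different between the treatments. With PFI-3, 39 were called lower (28.2% of all genes) and Nusap1 alone was called higher (32.1% of all genes), at a median log2 change of -0.36. Against the same step with DMSO, 3 of 48 differed and were lower (1.59% of all genes), none higher (1.78% of all genes). That count was 0 in a fit of only the libraries compared (11 at an unadjusted p under 0.05) and 4 by DESeq2. It was 0 without any single DM 24h library, 1 without either DM 48h DMSO library, 5 without GM DMSO B and 7 without GM PFI-3 A. By 24 h the median member had covered 15.4% of its total log2 fall with DMSO and 45.5% with PFI-3. This share depends on the smaller total fall with PFI-3, and it cannot be read for a gene whose level at 24 h was above its GM level, such as Nusap1 and Ckap2.

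**Figure D2:**
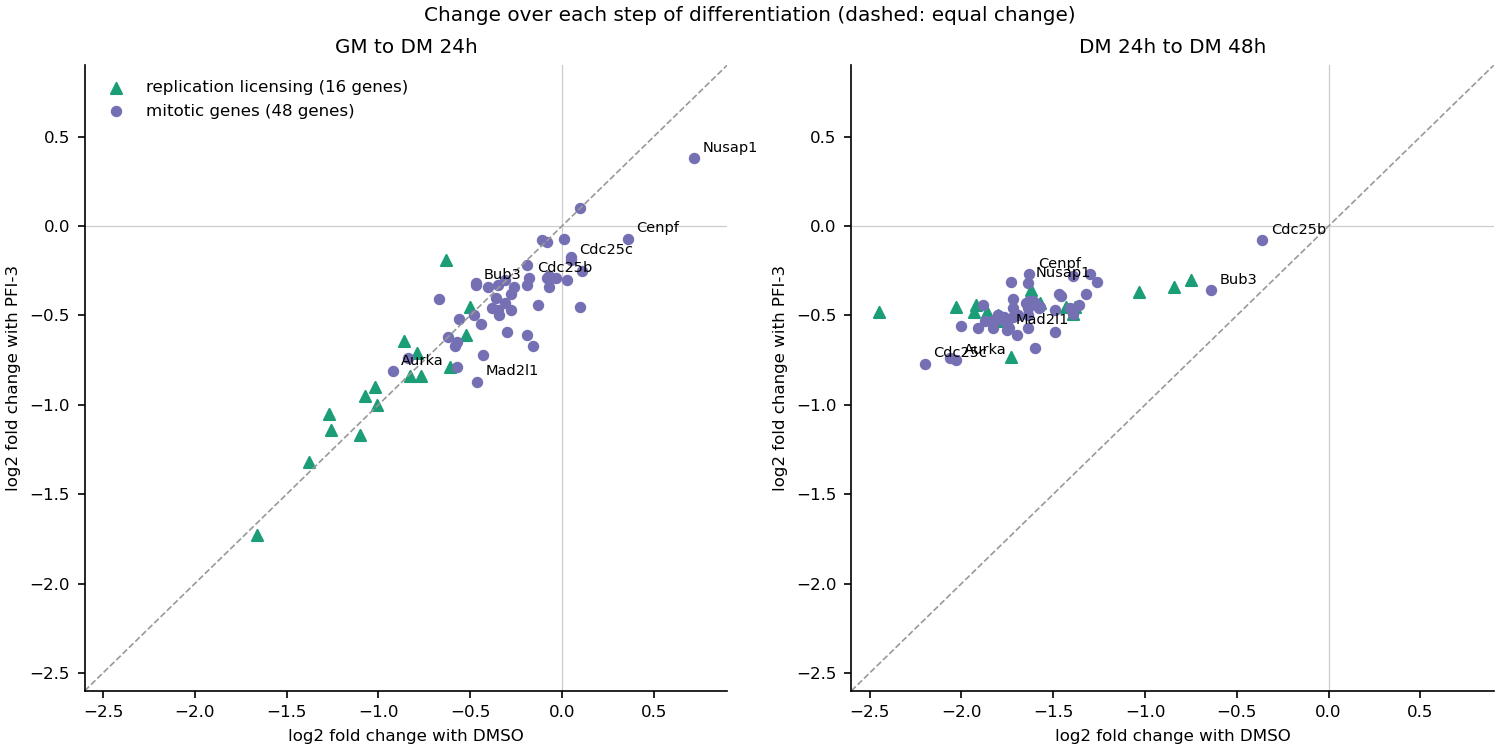
Log2 fold change of each of the 48 mitotic genes (circles) and 16 replication licensing genes (triangles) with DMSO (x axis) and with PFI-3 (y axis), from GM to DM 24h on the left and from DM 24h to DM 48h on the right; the dashed line marks equal change. On the left the circles lie near the dashed line, 37 of the 48 under it and 11 above it (medians -0.28 and -0.36). On the right all 48 lie above it (medians -1.64 and -0.47).

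At 48 h with PFI-3 the genes had not stayed at the 24 h level of DMSO cells. Against DMSO at 24 h, 47 of 48 were called lower in PFI-3 cells at 48 h (17.2% of all genes) and none higher (18.0%), at a median of 61.0% of that level, and in the same number both PFI-3 libraries lay under both DMSO libraries (37.2% of all genes, with 37.6% the other way round). Cdc25b was the exception, at 102% (log2 difference 0.03, SE 0.06, adjusted p = 0.79).

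At 48 h 4 of 7 muscle markers were called lower with PFI-3 and none higher (14.0% and 13.4% of all genes): Ckm (-0.92), Myog (-0.62), Myh3 (-0.58) and Acta1 (-0.5). Des (-0.22), Myod1 (-0.23) and Myf5 (-0.14) were not called. The same 4 were called lower at 24 h (11.4% of all genes), where 18 mitotic genes were called lower too. The summed level of 7 muscle markers (Myod1, Myf5, Des, Myog, Myh3, Ckm and Acta1, all 7 listed) was 629 to 686 CPM in GM DMSO libraries and 436 to 571 with PFI-3. It reached 2970 to 2990 with DMSO at 24 h against 1730 with PFI-3, and 16400 to 16600 against 11400 to 11800 at 48 h. Myog, a transcription factor of terminal differentiation, was at 1822 and 1845 CPM with DMSO and 1214 and 1179 CPM with PFI-3 at 48 h. The part of the muscle markers' difference in the values of the mitotic genes was not tested. Markers of other cells were low. The summed level was at most 1.22 CPM for the endothelial pair (Pecam1 and Cdh5), 1.39 for the epithelial pair (Epcam and Cdh1) and 9.05 for the blood pair, in which Ptprc reached 0.163 and Cd68 0.872 to 9.05 CPM, highest in GM. Cdh5 and Cdh1, at up to 1.22 and 1.39 CPM, were called higher from 24 h to 48 h with DMSO (2.18, adjusted p = 0.0423, and 2.98, adjusted p = 0.00224). With PFI-3 Cdh1 was called higher at that step too (2.82), and Cdh5 was not called (0.29). Pecam1, Ptprc and Epcam did not pass the filter on low counts and were not tested. Of Cdh5, Cd68 and Cdh1, none was called between treatments at 48 h. The part of these markers in the values of the mitotic genes was not tested.

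Library totals were 12576374 to 13658352 expected counts. The GM pairs were noisier than the others: the SD of the log2 ratio of A to B over well-counted genes was 0.333 (DMSO) and 0.301 (PFI-3) in GM and 0.138 to 0.151 in the DM groups. The mitotic genes took part in it, since library A was the lower for 44 of 48 genes in the GM PFI-3 pair and the higher for 34 of 48 in the GM DMSO pair. Deposited counts were fractions in some libraries for Hmmr and Spc24 (12 of 12 each), Birc5 (10), Cenpf (7), Kif11 (2) and Ube2c (2), so reads of these 6 genes may be split with other genes, and their levels are less certain.

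Promoters of the members are shown next, because the genes moved together and most of those with an entry have a CHR or a CCAAT box near their start sites. In RefSeq's promoter table for GRCm38.p6, the mm10 build that the submitters' notes name, 41 of the 48 genes had an entry. Each window runs from 250 bases before the start to 50 after it. Aurkb, Cdc25c, Smc4, Tpx2, Spc24, Incenp and Kif20a had none. The CHR (cell cycle genes homology region, TTTGAA on either strand, TTCAAA when read from the other) is the element through which MuvB complexes silence these genes in resting cells and activate them in G2. The CCAAT box (CCAAT or, on the other strand, ATTGG) is bound by NF-Y. No match of 1 motif can lie inside a match of the other.

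A CHR was present for 30 of the 41 genes (73.2%), against 20.2% of all 27025 genes in the table and 17.9% of its 32851 promoters. It lay within 50 bases of the start for 27 of the 41 genes (65.9%), against 5.7% of all genes. CCAAT was present for 30 of 41 (73.2%, against 41.1% of all genes), and both motifs for 26 of 41 (63.4%, against 8.0% of all genes). A typical E2F site (TTTGGCGC, TTTCCCGC, TTTGCCGC or TTTCGCGC on either strand) was present for 3 of 41 (7.3%, against 2.6% of all genes). In these shares "all genes" are those with a promoter entry, not only the 12545 genes tested, so genes not expressed in these cells are included. The share over the tested genes alone was not computed. A match of letters is a description and does not show that a factor binds there.

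The 120 bases directly before the start are printed for 8 members, 5′ to 3′ on the gene's own strand, with CHR and CCAAT matches in capitals on either strand. Cdc20, Ube2c and Espl1 act in anaphase, Ncapg and Top2a in chromosome shape, Kif11 in the spindle and Cenpn in the kinetochore. These 7 are shown as members with a CHR here. Like all 48 members, they were called higher with PFI-3 at 48 h. Cdc25b, the member that kept most of its GM level at 48 h with DMSO (68.9%), is shown as a member with no CHR in its window. Lacking a CHR did not go with a weak fall throughout: among the others without one, Mad2l1 was at 21.6%, Birc5 at 24.1% and Bub1 at 29.8% of GM at 48 h with DMSO, and Bub3, which has a CHR, was at 46.3%. These 4 were chosen after their values were seen. Coordinates are GRCm38.p6.
Cdc20 (chr4:118437344-118437463, minus strand): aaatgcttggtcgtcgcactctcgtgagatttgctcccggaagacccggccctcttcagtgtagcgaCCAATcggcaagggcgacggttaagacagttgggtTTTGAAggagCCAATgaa
Ube2c (chr2:164769809-164769928, plus strand): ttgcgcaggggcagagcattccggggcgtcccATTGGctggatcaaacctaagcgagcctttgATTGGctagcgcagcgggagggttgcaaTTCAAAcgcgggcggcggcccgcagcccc
Espl1 (chr15:102296173-102296292, plus strand): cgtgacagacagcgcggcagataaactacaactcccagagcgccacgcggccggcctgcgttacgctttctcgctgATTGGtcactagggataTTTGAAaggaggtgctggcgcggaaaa
Ncapg (chr5:45669805-45669924, plus strand): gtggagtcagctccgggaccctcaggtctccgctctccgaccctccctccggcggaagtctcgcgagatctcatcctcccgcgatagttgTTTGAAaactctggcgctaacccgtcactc
Top2a (chr11:99024190-99024309, minus strand): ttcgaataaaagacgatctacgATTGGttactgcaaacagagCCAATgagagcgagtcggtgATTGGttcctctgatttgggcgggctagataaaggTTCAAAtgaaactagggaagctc
Kif11 (chr19:37376262-37376381, plus strand): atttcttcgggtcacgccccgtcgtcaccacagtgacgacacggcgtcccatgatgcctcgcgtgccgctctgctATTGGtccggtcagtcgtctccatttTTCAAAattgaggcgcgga
Cenpn (chr8:116921620-116921739, plus strand): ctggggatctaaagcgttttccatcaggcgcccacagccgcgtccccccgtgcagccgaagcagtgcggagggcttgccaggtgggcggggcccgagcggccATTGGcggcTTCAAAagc
Cdc25b (chr2:131186828-131186947, plus strand): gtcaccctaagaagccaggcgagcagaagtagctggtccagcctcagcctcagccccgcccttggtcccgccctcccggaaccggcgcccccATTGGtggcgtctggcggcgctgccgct
Counting the last base before the start as -1, the first base of the CHR lies at -18 in Cdc20, -27 in Espl1, -30 in Ncapg, -23 in Top2a, -19 in Kif11 and -9 in Cenpn. In the printed stretch of Espl1 and Kif11 a single CCAAT match precedes it, at -44 and -45.

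The size of the PFI-3 difference at 48 h was also set beside the presence of a CHR. Its median was 0.94 on the log2 scale in the 30 genes with a CHR (0.24 to 1.17) and 0.96 in the 11 without (0.38 to 1.18). The 2 ranges overlap.

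**Figure D3:**
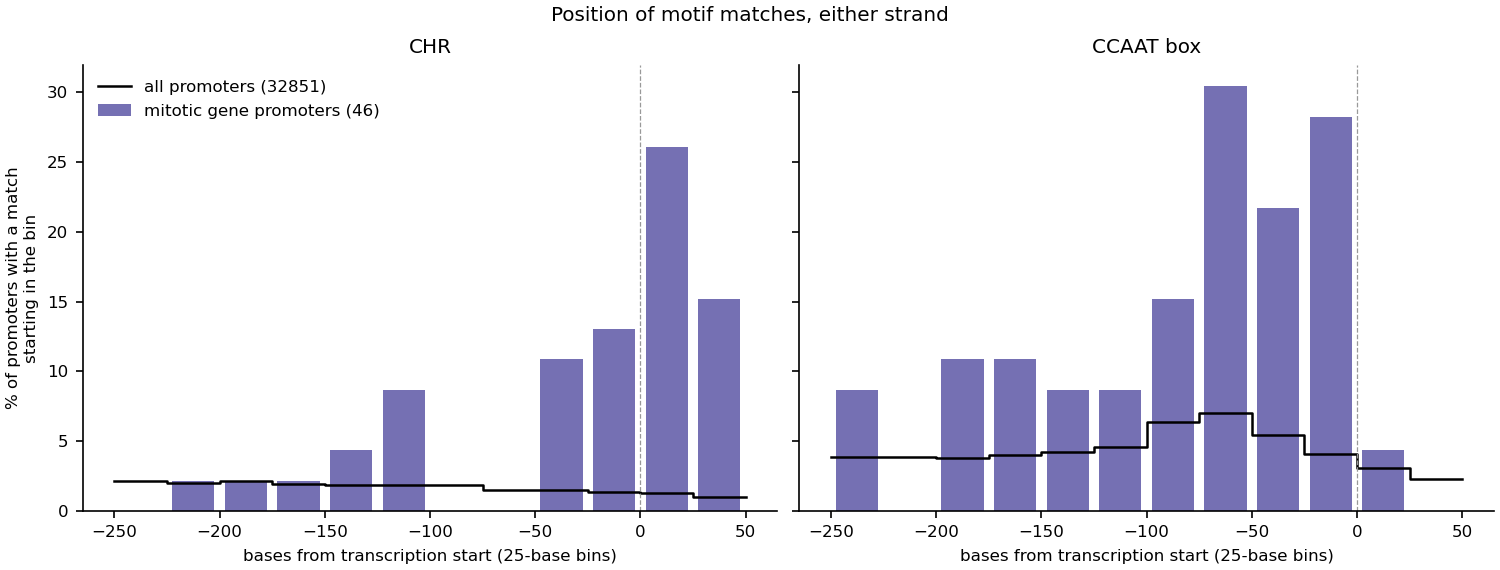
Percentage of promoters with a CHR or a CCAAT match starting in each bin of 25 bases, by distance from the transcription start, for the 46 promoters of the 41 member genes (bars) and for all promoters in the RefSeq table (line). The CHR matches of the members are most frequent in the bins next to the start, where 26.09% of their promoters have one in the bin from 0 to 24 against 1.31% of all promoters.

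The spindle checkpoint genes are described first. BUB1, BUBR1 (Bub1b), BUB3, MAD2 (Mad2l1) and MPS1 (Ttk) sense unattached kinetochores. All 5 were called lower from 24 h to 48 h with DMSO (23.9% of all genes). All 5 were called higher with PFI-3 at 48 h (13.4% of all genes), at a median log2 difference of 0.96. Bub1, a checkpoint kinase, measured 92.5 and 87.8 CPM in GM, 92.5 and 84.1 at 24 h and 25.8 and 27.9 at 48 h with DMSO. With PFI-3 it measured 99.2 and 99.4, then 77.5 and 85.4, then 56.6 and 61.4 CPM. Its DMSO libraries at 24 h overlapped those of GM, and its 2 PFI-3 libraries at 48 h were far above the DMSO pair (log2 difference 1.14, SE 0.09, adjusted p = 3.04e-06).

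Bub3, the partner that brings BUB1 and BUBR1 to the kinetochore, moved least in this group. It measured 153 and 144 CPM in GM, 106 and 108 at 24 h and 68.1 and 69.5 at 48 h with DMSO, and 128 and 134, 102 and 107, and 78.5 and 84.0 CPM with PFI-3. The PFI-3 libraries at 48 h were above the DMSO pair by a small margin (0.24, SE 0.07, adjusted p = 0.0225), and this call held in 17 of 21 alternative fits (adjusted p up to 0.162). Bub1b was the only checkpoint gene called lower with PFI-3 at 24 h (-0.29, SE 0.07, adjusted p = 0.00879), from 151 and 145 to 119 and 123 CPM. Mad2l1 had the steepest first step with PFI-3 (-0.87, SE 0.1, adjusted p = 1.85e-05).

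Mitotic kinases and the CDC25 phosphatases drive entry into mitosis. Plk1 and Aurka mature the centrosomes, and Cdc25b and Cdc25c activate CDK1. Plk1 measured 238 and 210 CPM in GM, 150 and 154 at 24 h and 39.0 and 33.9 at 48 h with DMSO. PFI-3 libraries of Plk1 held 162 and 216, then 135 and 129, then 80.8 and 76.9 CPM. The 2 treatments overlapped in GM and were separated at 48 h, where PFI-3 libraries were higher (1.11, SE 0.13, adjusted p = 6.19e-05).

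Aurka had the largest fall of all members from GM to 24 h with DMSO, from 165 and 141 to 78.6 and 83.6 CPM (-0.92, SE 0.1, adjusted p = 6.17e-06), and reached 20.7 and 19.1 CPM at 48 h. With PFI-3 it went from 120 and 142 to 73.4 and 76.4 and then to 42.9 and 46.1 CPM. At 48 h it was 1.16 higher with PFI-3 on the log2 scale (SE 0.11, adjusted p = 1.7e-05). Cdc25c had the steepest second step with DMSO, from 25.4 and 23.8 to 5.45 and 5.24 CPM (-2.2, SE 0.17, adjusted p = 6.98e-07). It was not called at 24 h (0.05, SE 0.14, adjusted p = 0.79).

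Cdc25b stood apart from its group. It measured 134 and 142 CPM in GM, 120 and 124 at 24 h and 97.2 and 93.2 at 48 h with DMSO. Under PFI-3 the values were 160 and 161, then 133 and 129, then 126 and 122 CPM. Its PFI-3 libraries were above the DMSO libraries at every stage, including 24 h, where no other member had that order (35.3% of all genes do). The difference was called at 48 h (0.38, SE 0.06, adjusted p = 0.000787), barely in GM (0.21, SE 0.06, adjusted p = 0.0425) and not at 24 h (0.11, SE 0.06, adjusted p = 0.241). The call in GM was lost by DESeq2, without the low-count filter and in a fit of only the libraries compared.

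The chromosomal passenger complex corrects faulty attachments and later guides cytokinesis. Its kinase is Aurkb, its scaffold Incenp, and Birc5 (survivin) and Cdca8 (borealin) place it on chromatin. Its 4 genes moved as a block. All 4 were called lower at both steps with DMSO (30.0% and 23.9% of all genes) and with PFI-3 (28.2% and 14.2%). All 4 were called higher with PFI-3 at 48 h (13.4% of all genes), between 0.89 and 1.07. Birc5 measured 187 and 160 CPM in GM, 124 and 125 at 24 h and 42.6 and 41.0 at 48 h with DMSO, and 157 and 154, 110 and 109, and 79.0 and 80.2 CPM with PFI-3. Its PFI-3 libraries were under its DMSO libraries in GM (-0.16, adjusted p = 0.188) and at 24 h (-0.18, adjusted p = 0.0978), neither of them called, and above them at 48 h (0.93, SE 0.08, adjusted p = 6.88e-06).

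Incenp had the largest difference of the complex at 48 h, with 47.5 and 50.6 CPM in DMSO and 106 and 99.2 in PFI-3 (1.07, SE 0.09, adjusted p = 7.76e-06). Cdca8 had the smallest, with 23.3 and 22.8 against 44.4 and 40.8 CPM (0.89, SE 0.09, adjusted p = 1.68e-05), and was also called lower with PFI-3 at 24 h, from 68.5 and 70.0 to 58.6 and 57.0 CPM (-0.26, SE 0.08, adjusted p = 0.0291).

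The NDC80 complex is the rod that grips microtubules, with Ndc80 and Nuf2 at its microtubule end and Spc24 and Spc25 at the kinetochore. With DMSO only Spc24 was called lower at 24 h (-0.36, SE 0.07, adjusted p = 0.0006), where 30.0% of all genes were. Spc25 measured 54.9 and 65.3 CPM in GM, 63.8 and 60.6 at 24 h and 18.8 and 17.8 at 48 h with DMSO, and 57.0 and 60.3, 52.2 and 52.1, and 34.8 and 38.4 CPM with PFI-3. Its DMSO libraries at 24 h lay inside the range of the GM libraries, and it was 1.0 higher with PFI-3 at 48 h on the log2 scale (SE 0.1, adjusted p = 2.47e-05). Ndc80 itself had the smallest difference of the 4, with 13.2 and 15.2 against 23.7 and 23.8 CPM at 48 h (0.74, SE 0.11, adjusted p = 0.000278).

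Among other centromere proteins, CENP-A is the histone H3 variant that marks the centromere, Cenpk and Cenpn belong to the inner kinetochore, and Cenpe and Cenpf are large outer proteins, CENP-E being a kinesin. Cenpa measured 108 and 91.9 CPM in GM, 74.5 and 77.1 at 24 h and 28.5 and 30.4 at 48 h with DMSO, and 66.1 and 94.0, 63.8 and 62.4, and 44.6 and 48.4 CPM with PFI-3. Its difference at 48 h was the smallest of the group (0.66, SE 0.15, adjusted p = 0.00578) and was called in 19 of 21 alternative fits (adjusted p up to 0.058).

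Cenpk was the second lowest member by length-scaled level (mean 6.31 FPKM over the 12 libraries), and it had the largest difference of all 48 at 48 h. It measured 2.68 and 2.78 CPM with DMSO and 5.56 and 6.87 with PFI-3 (1.18, SE 0.22, adjusted p = 0.00175), with the largest SE of the 48 in this comparison. Cenpf was 1 of the 2 genes called higher from GM to 24 h with DMSO, from 128 and 137 to 173 and 167 CPM (0.36, SE 0.07, adjusted p = 0.000548). With PFI-3 it measured 134 and 145 CPM in GM and 130 and 136 at 24 h (-0.07, SE 0.07, adjusted p = 0.404). At 48 h it was at 53.7 and 56.1 CPM with DMSO and 111 and 110 with PFI-3.

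Mitotic kinesins slide and depolymerize spindle microtubules and push chromosomes. Kif11 (Eg5) separates the poles, Kif2c (MCAK) and Kif18a shorten microtubule ends, and Kif4 and Kif22 are chromosome-arm motors. All 5 were called higher with PFI-3 at 48 h (13.4% of all genes), between 0.62 and 0.94. At 24 h 3 of 5 were called lower with PFI-3 (11.4% of all genes). Kif22, the highest of them per length, measured 98.9 and 96.6 CPM in GM, 83.5 and 88.1 at 24 h and 27.9 and 26.7 at 48 h with DMSO. In PFI-3 cells Kif22 was at 67.6 and 80.2, then 66.1 and 60.8, then 46.6 and 47.4 CPM. Its PFI-3 libraries were thus under the DMSO libraries in GM (-0.4, SE 0.08, adjusted p = 0.0109) and at 24 h (-0.43, SE 0.09, adjusted p = 0.00353) and above them at 48 h (0.78, SE 0.09, adjusted p = 7.96e-05).

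Kif4 and Kif2c shared the largest difference of the kinesins at 48 h, 0.94 each. For Kif4 the values were 22.0 and 24.1 CPM with DMSO and 42.8 and 45.8 with PFI-3, and for Kif2c 30.7 and 30.9 against 59.1 and 59.1 CPM. Kif11, whose promoter is printed above, went from 155 and 156 CPM at 24 h to 43.3 and 44.0 at 48 h with DMSO and from 123 and 124 to 83.0 and 83.1 CPM with PFI-3. Kif18a was the lowest member per length (mean 4.73 FPKM) and measured 6.34 and 6.14 CPM with DMSO and 10.2 and 9.06 with PFI-3 at 48 h (0.62, SE 0.14, adjusted p = 0.00632; called in 19 of 21 alternative fits, adjusted p up to 0.0595).

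The midzone and cytokinesis genes act last. PRC1 bundles the midzone microtubules, Kif23 and Racgap1 form centralspindlin, Ect2 activates RhoA, anillin (Anln) scaffolds the contractile ring, and Kif20a and Kif20b are midzone kinesins. With DMSO 6 of 7 were called lower from GM to 24 h (30.0% of all genes) and all 7 from 24 h to 48 h (23.9%). Racgap1, the highest of them per length (mean 101 FPKM), measured 414 and 384 CPM in GM, 330 and 327 at 24 h and 141 and 134 at 48 h with DMSO. Cells with PFI-3 had 362 and 405, then 282 and 271, then 223 and 221 CPM. It had the smallest difference of the group at 48 h (0.69, SE 0.07, adjusted p = 2.46e-05), and its libraries were lower with PFI-3 at 24 h (-0.25, SE 0.07, adjusted p = 0.0223).

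Kif20b had the largest, with 13.5 and 19.0 CPM in DMSO and 36.6 and 35.8 in PFI-3 at 48 h (1.16, SE 0.15, adjusted p = 0.000119). Its 2 DMSO libraries differed more from each other than its PFI-3 libraries did. Anln, Ect2 and Kif23 were, with Racgap1, the 4 of 7 called lower with PFI-3 at 24 h (11.4% of all genes). Anln went from 335 and 330 to 259 and 273 CPM there and stood at 98.3 and 99.1 against 183 and 184 CPM at 48 h (0.89, SE 0.09, adjusted p = 1.9e-05).

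Spindle microtubule proteins include Tpx2, which activates Aurora A and nucleates microtubules, and Nusap1, Ckap2 and Hmmr, which bind and bundle them. Tpx2 measured 304 and 259 CPM in GM, 221 and 222 at 24 h and 71.6 and 70.5 at 48 h with DMSO, and 223 and 264, 174 and 178, and 124 and 132 CPM with PFI-3. It was lower with PFI-3 at 24 h (-0.33, SE 0.09, adjusted p = 0.021) and higher at 48 h (0.85, SE 0.1, adjusted p = 4.79e-05). Hmmr had the largest difference of the 4 at 48 h, with 29.1 and 32.2 against 70.3 and 67.4 CPM (1.17, SE 0.11, adjusted p = 9.82e-06).

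Nusap1 was the member that went up most before it went down. It measured 61.1 and 65.1 CPM in GM, 106 and 102 at 24 h and 32.0 and 34.8 at 48 h with DMSO. The PFI-3 libraries of Nusap1 had 57.5 and 70.3, then 80.4 and 85.8, then 66.0 and 67.4 CPM. Its rise to 24 h was called with DMSO (0.72, SE 0.09, adjusted p = 3.09e-05) and with PFI-3 (0.38, SE 0.09, adjusted p = 0.00359), and its levels in PFI-3 at 48 h lay within the range of its GM libraries.

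Regulators of anaphase include some of the highest levels per length. Cdc20 activates the anaphase-promoting complex, Ube2c is its ubiquitin-conjugating enzyme, Pttg1 (securin) is its substrate, and Espl1 (separase) is freed when securin is destroyed. Ube2c had the highest mean of all 48 genes (168 FPKM). It measured 256 and 235 CPM in GM, 137 and 137 at 24 h and 47.2 and 45.2 at 48 h with DMSO, and 193 and 231, 123 and 130, and 89.8 and 95.6 CPM with PFI-3. It was among the earliest to fall in DMSO (-0.84, SE 0.09, adjusted p = 4.68e-06, by 24 h) and was 1.01 higher with PFI-3 at 48 h (SE 0.09, adjusted p = 1.08e-05).

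Espl1 had the smallest difference of the group at 48 h, with 52.7 and 47.2 CPM in DMSO and 85.9 and 82.2 in PFI-3 (0.75, SE 0.09, adjusted p = 8.41e-05), and was its only gene called lower with PFI-3 at 24 h, from 142 and 136 to 118 and 102 CPM. Cdc20 was among the genes lower with PFI-3 in GM, with 275 and 240 against 163 and 217 CPM (-0.44, SE 0.12, adjusted p = 0.0346). Its GM PFI-3 libraries were far apart. Pttg1, the securin gene, was not called at 24 h with DMSO (-0.11, SE 0.12, adjusted p = 0.448). The other 3 genes of the group were called lower there (30.0% of all genes). Pttg1 measured 22.0 and 21.8 against 39.6 and 38.2 CPM at 48 h.

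Condensin I and topoisomerase II compact and untangle chromosomes. Smc2 and Smc4 are the condensin ATPases, and Ncapd2, Ncapg and Ncaph its other subunits. None of the 6 was called from GM to 24 h with DMSO (30.0% of all genes lower, 30.6% higher). At that step 5 of 6 were called lower with PFI-3 (28.2% of all genes). Top2a measured 546 and 530 CPM in GM, 565 and 531 at 24 h and 173 and 186 at 48 h with DMSO. For PFI-3 the Top2a values were 548 and 571, then 447 and 461, then 339 and 340 CPM. Its 24 h libraries with PFI-3 were under all 4 GM libraries and both DMSO libraries (-0.27 against DMSO, SE 0.06, adjusted p = 0.00882), and its 48 h libraries were above DMSO (0.92, SE 0.06, adjusted p = 1.58e-06).

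Smc2 had the largest difference of the 6 at 48 h, with 46.4 and 46.1 against 100 and 97.7 CPM (1.1, SE 0.08, adjusted p = 2.35e-06). Its partner Smc4 had the smallest, with 80.5 and 91.8 against 124 and 128 CPM (0.55, SE 0.08, adjusted p = 0.000289). The test of the difference between these 2 genes was not made. At 24 h Smc4 was lower with PFI-3, with 223 and 207 CPM in DMSO and 160 and 169 in PFI-3 (-0.39, SE 0.08, adjusted p = 0.00333). Ncapd2 had the value nearest to 0 of the 6 there (-0.05, SE 0.07, adjusted p = 0.616).

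**Figure D4:**
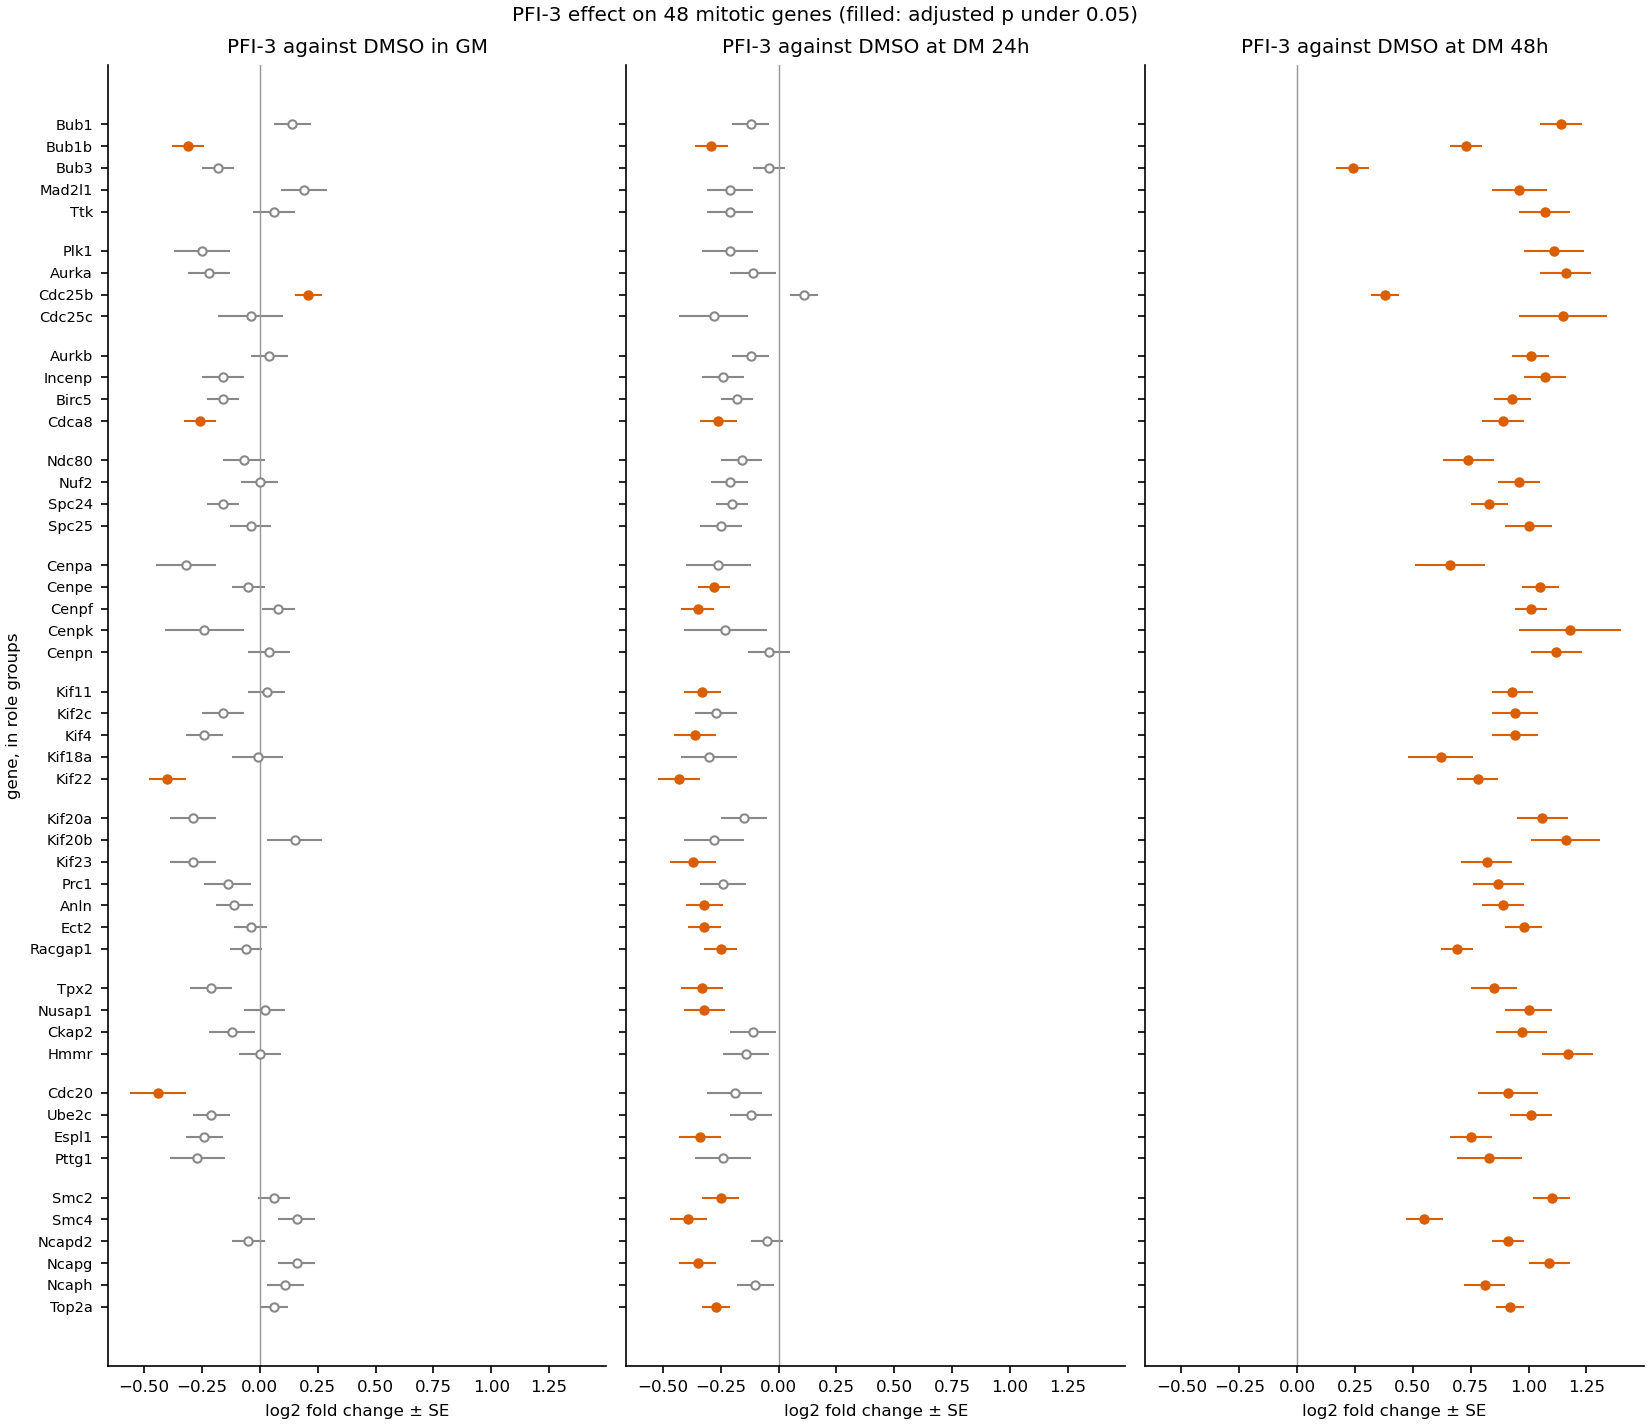
Log2 fold change of PFI-3 against DMSO, with its standard error, for each of the 48 genes, with 1 panel per stage; filled points had an adjusted p under 0.05. In GM the points lie on both sides of 0 (median -0.07), at DM 24h all but Cdc25b lie under 0 (median -0.24), and at DM 48h all 48 lie above 0 (0.24 to 1.18).

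Before and early in differentiation the differences were small. In GM both PFI-3 libraries lay under both DMSO libraries in 13 of 48 genes (24.0% of all genes) and above them in 6 (21.4% of all genes). There 5 of 48 were called, 4 lower (6.15% of all genes) and 1 higher (5.46% of all genes): Bub1b (-0.31, adjusted p = 0.0131), Cdca8 (-0.26, adjusted p = 0.0431), Kif22 and Cdc20 were lower and Cdc25b higher. No member was called in GM in a fit of the 4 GM libraries alone (3 had an unadjusted p under 0.05), 3 were called by DESeq2, and without library B of GM DMSO or GM PFI-3 the count was 15 or 13, and without any other single library it was 2 or 3. At 24 h, both PFI-3 libraries lay under both DMSO libraries in 41 of 48 genes (35.2% of all genes). The count of 18 called genes there was 37 in a fit of the 4 libraries at 24 h alone and fell to between 3 and 7 without any single one of them (3 without DMSO A, 7 without DMSO B, 6 without PFI-3 A and 5 without PFI-3 B). Because all 48 were called higher at 48 h, the 18 called lower at 24 h are necessarily among them.

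Genes that act on or beside the members were set beside them. Among 14 transcriptional regulators of mitotic genes, 6 were called higher with PFI-3 at 48 h and none lower (13.4% and 14.0% of all genes), at a median of 0.22. Foxm1, the activator of G2 genes, measured 353 and 317 CPM in GM, 256 and 260 at 24 h and 77.4 and 72.6 at 48 h with DMSO, and 326 and 343, 203 and 199, and 141 and 146 CPM with PFI-3. It was lower with PFI-3 at 24 h (-0.36, adjusted p = 0.0029) and higher at 48 h (0.94, adjusted p = 2.88e-06). Mybl2 (B-MYB) was at 47.6 and 46.4 against 30.4 and 30.9 CPM at 24 h and at 10.9 and 9.9 against 23.6 and 22.9 CPM at 48 h (-0.61, adjusted p = 0.0082, and 1.16, adjusted p = 0.00035). Rbl2 (p130), a subunit of the repressive DREAM complex, rose from 24 h to 48 h with DMSO (0.44, adjusted p = 0.00258) and was not called between treatments at 48 h (-0.18, adjusted p = 0.19). Its relative Rbl1 (p107) went the other way. With DMSO it measured 71.1 and 69.0 CPM at 24 h and 21.6 and 22.5 at 48 h, where PFI-3 libraries had 45.9 and 48.0. The repressor E2f7 also fell with DMSO, from 71.6 and 74.2 to 23.3 and 22.8 CPM, against 42.1 and 41.7 with PFI-3 at 48 h.

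Of 24 other kinetochore genes, 20 were called higher with PFI-3 at 48 h and 1 lower, at a median of 0.71, beside the same 13.4% and 14.0% of all genes. Cenph (1.47, adjusted p = 8.37e-05) was the highest of them and Mad1l1, the checkpoint partner of MAD2, the one that was lower (-0.54, adjusted p = 0.000276). Cohesin genes were mixed: 7 of 15 were called higher and none lower (median 0.18), and 11 had a difference above 0 and 4 under 0. Cdca5 (sororin, 1.35), Esco2 (1.32) and the shugoshins Sgo2a (1.05) and Sgo1 (1.04) led them. Of the ring subunits, Rad21 was not called (0.1, adjusted p = 0.445). Smc1a measured 139 and 135 CPM with DMSO and 165 and 170 with PFI-3 at 48 h, and Smc3 80.2 and 77.3 against 97.5 and 108. All 3 condensin II genes were called higher (median 0.82). Among 15 genes of the anaphase-promoting complex core 4 were called higher (median 0.06), and among 9 gamma-tubulin ring genes 5 (median 0.26). Of all genes 13.4% were called higher, and the core of the anaphase-promoting complex was the list nearest to that share.

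**Figure D5:**
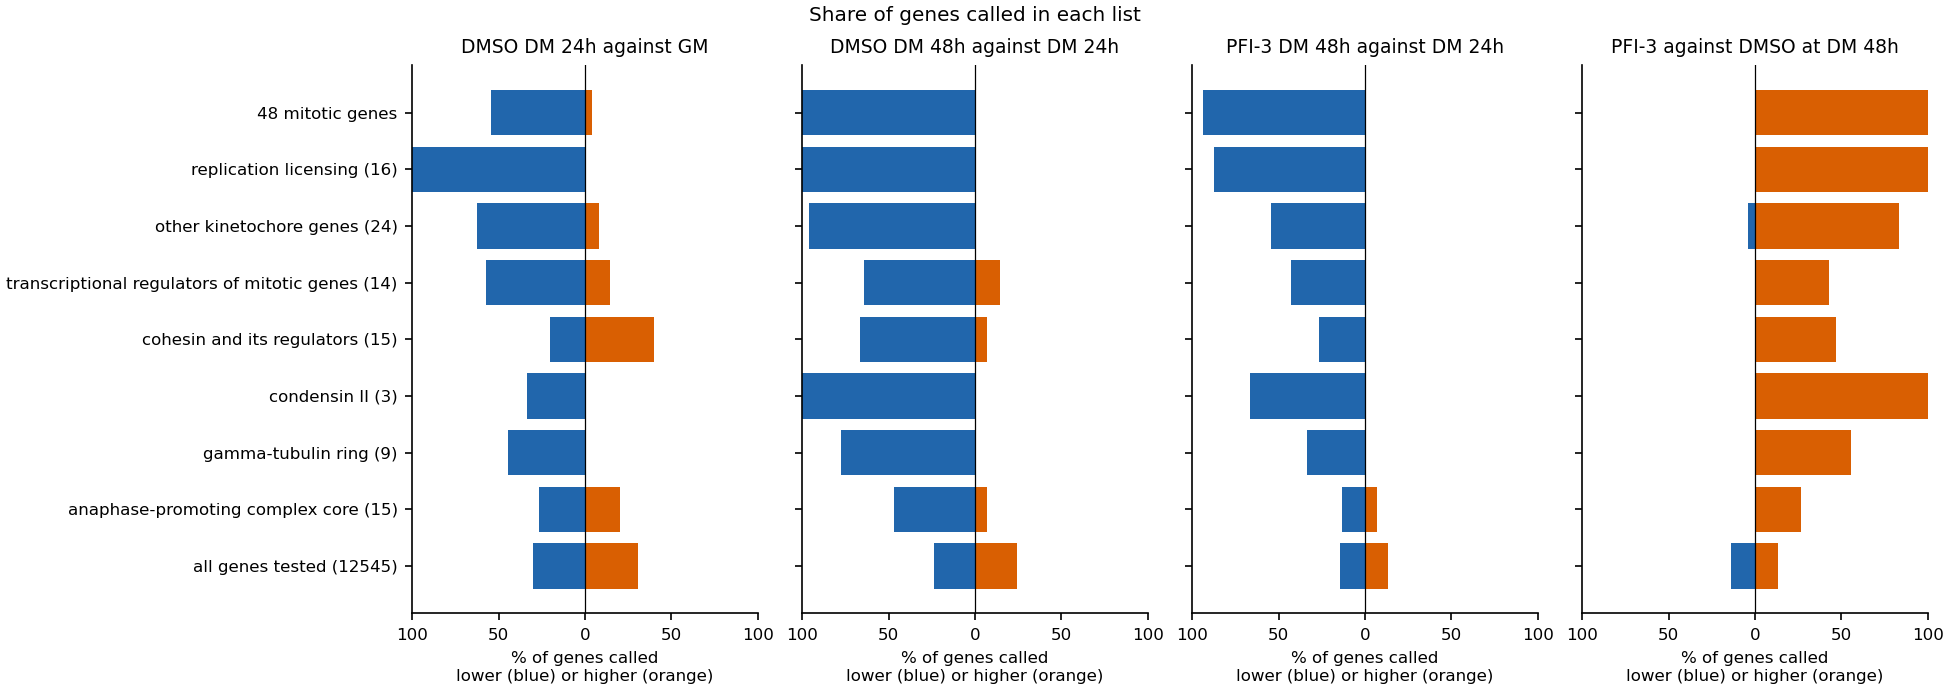
Percentage of genes called lower (blue, to the left) or higher (orange, to the right) in each gene list, with the number of genes in brackets, for 4 comparisons. In PFI-3 against DMSO at DM 48h, the bars of the 48 mitotic genes, the 16 licensing genes and the 3 condensin II genes fill the higher side, where all genes tested reach 13.4%.

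Replication licensing genes, which act in G1 and S phase, were set beside the mitotic genes for the timing of the fall. With DMSO all 16 were called lower from GM to 24 h (median -0.94). The mitotic genes had a median of -0.28 there and 26 of 48 called lower. Of all genes 30.0% were called lower at that step and 30.6% higher. They were at 52.4% of GM at 24 h with DMSO and the mitotic genes at 82.3%. At the second step the 2 sets were close: the 48 h level was 31.2% of the 24 h level for licensing genes and 32.0% for mitotic genes with DMSO, and 73.0% and 72.4% with PFI-3. At 48 h all 16 licensing genes were called higher with PFI-3 than with DMSO (13.4% of all genes). Their median log2 difference was 1.06, beside 0.94 for the mitotic genes. The difference between the 2 sets was not tested.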

How the data were processed

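Total RNA of 12 C2C12 libraries was sequenced by the authors' provider. One table per library was deposited, replicates not pooled. Per the submitters' processing notes the tools named are HISAT, StringTie, Cufflinks, Bowtie, RSEM and DESeq2, with the mm10 build; their versions and parameters are not given in the sources used here. Per the file headers each table holds an expected count and an FPKM value per gene, both made by the authors, and between 93.3% and 93.7% of the deposited expected counts of a library were whole. A gene missing from a table was taken as 0; none of the 48 members was missing.

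Expected counts were rounded to whole numbers. edgeR 4.0.16 (R 4.3.3; filterByExpr, TMM, quasi-likelihood test) was fitted to all 12 libraries with 1 mean per group, so that the 6 groups share an estimate of the spread, and Benjamini-Hochberg adjustment ran over 12545 genes; the threshold was 0.05. SEs are the log2 fold change divided by the square root of its F statistic. FPKM values ranked genes per length. Alternatives were DESeq2 1.42.0, its size factors, other filters, only the libraries compared, the replicate letter as a block, limma 3.58.1 on log2(FPKM + 1) or log2(FPKM + 0.1), and each library left out. The scripts were tested on simulated data.

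The members, their 10 role groups and the other gene lists were chosen with earlier results of these data known. Values in every library are given for the member of each role group with the highest mean FPKM, for those with the largest and smallest PFI-3 difference at 48 h and for members opposite to the rest; other members and genes are named by role. Promoters are RefSeq's for GRCm38.p6. Between A and B the chi-square per degree of freedom over genes was 18.33 (DMSO) and 13.58 (PFI-3) in GM and 1.73 to 2.09 in the other pairs, where 1 would be counting error alone.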

Additional observations from a re-analysis of the deposited data

Results flagged for a closer look

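The change between stages differed between the treatments, by the test of that difference itself (edgeR's quasi-likelihood test, adjusted over all genes tested). From DM 24h to DM 48h, the change was called less negative with PFI-3 than with DMSO in 46 of the 48 genes. For each gene this is the PFI-3 difference at 48 h less that at 24 h, so it is not independent of those. The median of the difference on the log2 scale was 1.17 for the spindle checkpoint genes, 1.3 for the mitotic kinases and CDC25 phosphatases, 1.14 for the chromosomal passenger complex and 1.1 for the NDC80 complex. It was 1.33 for the other centromere proteins, 1.22 for the kinesins, 1.21 for the midzone and cytokinesis genes and 1.24 for the spindle microtubule proteins. The regulators of anaphase had a median of 1.09 and condensin with topoisomerase one of 1.07.

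From GM to DM 24h, 3 genes differed: Cenpf (-0.43, adjusted p = 0.0312), Ncapg (-0.52, adjusted p = 0.0299) and Smc4 (-0.55, adjusted p = 0.0189) were each lower at 24 h relative to GM with PFI-3 than with DMSO. None of the 3 was called in a fit of only the libraries compared. Groups of 2 libraries are too small for a search for single libraries that stand apart.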

How the results depend on the processing

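All 48 genes stayed called lower from DM 24h to DM 48h with DMSO in all 21 alternative fits, and no called value of a member reversed in any fit. Calls of PFI-3 against DMSO in GM fell from 5 to 3 with DESeq2, 3 without the low-count filter, 2 with limma at a pseudocount of 1 FPKM and 2 at 0.1 FPKM, and to 0 with only the libraries compared, with or without the block. At 24 h they rose from 18 to 37 with only the libraries compared, with the block 37. The 3 genes whose first step differed fell to 0 there, with the block 0. The cause was not tested.

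Leaving out 1 library at a time gave 2 to 15 calls for PFI-3 against DMSO in GM, 3 to 23 at 24 h and 46 to 48 at 48 h. With DMSO it gave 23 to 29 from GM to 24 h and 48 to 48 from 24 h to 48 h, and with PFI-3 29 to 42 and 36 to 46. The first step differed between treatments for 0 to 7 genes and the second for 45 to 48, and PFI-3 at 48 h against DMSO at 24 h gave 46 to 47. A group left with 1 library is assumed to vary like the others.

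Between DMSO and PFI-3, the replicate letters shared a difference in GM but not at 24 h or 48 h. The correlation of A minus B was 0.504 in GM, 0.029 at 24 h and 0.047 at 48 h. The main fit has no term for the letter. With the replicate block in the fit of all 12 libraries, calls were 4 in GM, 18 at 24 h and 48 at 48 h, and the other counts of called members were those of the fit without it.

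Over all genes, fitting only the libraries compared moved the calls from 1456 to 32 in GM (741 with the block), 2966 to 5583 at 24 h (5719), 3438 to 5688 at 48 h (6034), 3429 to 5674 from 24 h to 48 h with PFI-3 (6069), 423 to 79 (101) and 1517 to 4154 (4181) for the difference in the first and second step.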
